A study of Mus musculus with 2 samples.

Results

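Club cells are the secretory cells of the mouse bronchioles, and 65 of them were picked out by their RNA from 9012 deposited lung cell barcodes: 24 from a mutant library and 41 from a control library. A barcode was a member if it held at least 500 genes and under 10% mitochondrial unique molecular identifiers (UMIs, each counting 1 captured RNA molecule), at least 1% of its UMIs from Scgb1a1 and Scgb3a2 together, and at least 3 UMIs of Cyp2f2. It also had to hold at most 5 UMIs over the ciliated cell genes Foxj1, Ccdc153, Tmem212 and Dynlrb2, and at most 2 over Pecam1, Col1a2 and Ptprc, which mark endothelial, mesenchymal and immune cells. Because measured values chose the members, the levels of those 10 genes are given as a description. Both libraries came from mouse lungs at postnatal day 10, purified by FACS for cells of the epithelium, endothelium, mesenchyme and immune system and run on the 10x Chromium platform. The mutant library is labelled with Nkx2-1 and Aqp5 and the control library with Nkx2-1 alone. No label gives the altered part of Nkx2-1, the driver of the change, the alleles of the control or the number of animals. The series concerns how NKX2-1 governs alveolar type 1 (AT1) cells, the thin cells of gas exchange.

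Club cells line the small airways, make secretoglobins and other lining fluid proteins, and carry cytochromes and conjugating enzymes that process inhaled chemicals. They also serve as progenitors that renew themselves and give rise to ciliated cells. NKX2-1 is a homeobox transcription factor present throughout the lung epithelium, and the secretoglobin and surfactant protein genes are among its best known targets. Aqp5 encodes a water channel of AT1 cells, and its locus is known as a driver of recombination in them.

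The filters kept 4418 of 4551 mutant and 4141 of 4461 control barcodes. Members made up 0.543% of the kept mutant barcodes (Clopper-Pearson 95% interval 0.348 to 0.807%) and 0.990% of the kept control barcodes (0.711 to 1.34%). Of the airway cells, taken as club members plus barcodes with at least 6 UMIs of the 4 ciliated genes, the members were 31.2% in the mutant library (24 of 77, 21.1 to 42.7%) and 28.7% in the control library (41 of 143, 21.4 to 36.8%). The FACS sort sets such shares as well as the tissue does, and the intervals of the airway share overlap. Members were deep cells, with a median of 12481.5 UMIs (7131 to 31226) in the mutant and 22485 UMIs (6978 to 37901) in the control, and 340088 UMIs in total in the mutant and 831634 UMIs in the control. Their median mitochondrial share was 4.38% in the mutant and 2.77% in the control. With 1 library per group no test between mutant and control is possible. Every interval below is an exact 95% interval that covers counting error only, with no check on animals or on library preparation.

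Few members lay close to the limits of the rule. The lowest summed secretoglobin shares inside the limit were 2.05, 3.76 and 11.9% in mutant members and 1.89, 2.97 and 12.2% in control members, while the 11 mutant barcodes that failed this limit alone reached at most 0.192%. In the control 0 barcodes failed this limit alone. Whether those 11 are airway cells with little secretoglobin RNA was not tested, and the member shares and levels leave them out. The lowest Cyp2f2 counts inside were 3, 7 and 10 UMIs in the mutant and 5, 11 and 13 UMIs in the control, and 1 mutant barcode with 2 UMIs failed only there. Ciliated gene sums reached 3 UMIs in mutant and 2 UMIs in control members, against at least 11 UMIs in the 8 mutant and 8 UMIs in the 14 control barcodes that this limit alone removed. The lineage limit alone removed 2 mutant barcodes, with 4 and 7 UMIs. No barcode shared by the libraries, of which there were 27, was a member.

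Secretoglobin RNA dominated these cells. Scgb1a1 (ENSMUSG00000024653; chromosome 19, 9083636 to 9087958, minus strand, mm10), which encodes the club cell secretory protein, summed to 366179 counts per 1000000 UMIs (CPM) in mutant members and 407606 CPM in control members. Per member its lowest, median and highest level was 20493, 380841 and 570882 CPM in the mutant, against 11307, 420168 and 580305 CPM in the control. Both ranges lie almost on top of each other. Scgb3a2, another airway secretoglobin, had 0, 15093 and 66485 CPM in mutant members and 0, 15922 and 116454 CPM in control members. It was seen in 21 of 24 mutant and 40 of 41 control members, and the median member that held it had 24.8 Scgb1a1 UMIs per Scgb3a2 UMI in the mutant and 27.7 in the control. Cyp2f2 (ENSMUSG00000052974; chromosome 7, 27119909 to 27133660, plus strand), the cytochrome that activates naphthalene in these cells, had 380, 2360 and 5348 CPM in mutant and 432, 3187 and 8430 CPM in control members.

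The fourth marker, which the rule did not use, was present in every member. Hp (ENSMUSG00000031722; chromosome 8, 109575128 to 109579172, minus strand), which encodes the haemoglobin-binding protein haptoglobin, had 1134, 3909 and 9904 CPM in mutant members and 1174, 6553 and 13688 CPM in control members. Its UMIs were found in 24 of 24 mutant and 41 of 41 control members. In endothelial barcodes, which should lack it, 1.32% of mutant and 2.42% of control barcodes held an Hp UMI at median depths of 5320.5 UMIs in the mutant and 4714 UMIs in the control. Thinned to 2000 UMIs a barcode, the shares were 91.7% of mutant members against 0 of 454 mutant endothelial barcodes, which allows a share of up to 0.661%, and 100% of control members against 1.01% of control endothelial barcodes. Cbr2, the carbonyl reductase abundant in club cells, likewise had a UMI in every member and ran from 1125 through 11335 to 15564 CPM in the mutant, against 3517, 13170 and 31425 CPM in the control. The 13 listed immune genes outside the rule summed to 17.6 CPM in mutant and 18.04 CPM in control members, neuroendocrine genes to 17.6 CPM in mutant and 4.81 CPM in control members, and mesenchymal genes to 109 CPM in mutant and 107 CPM in control members. Alveolar genes were more abundant.

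**Figure D1:**
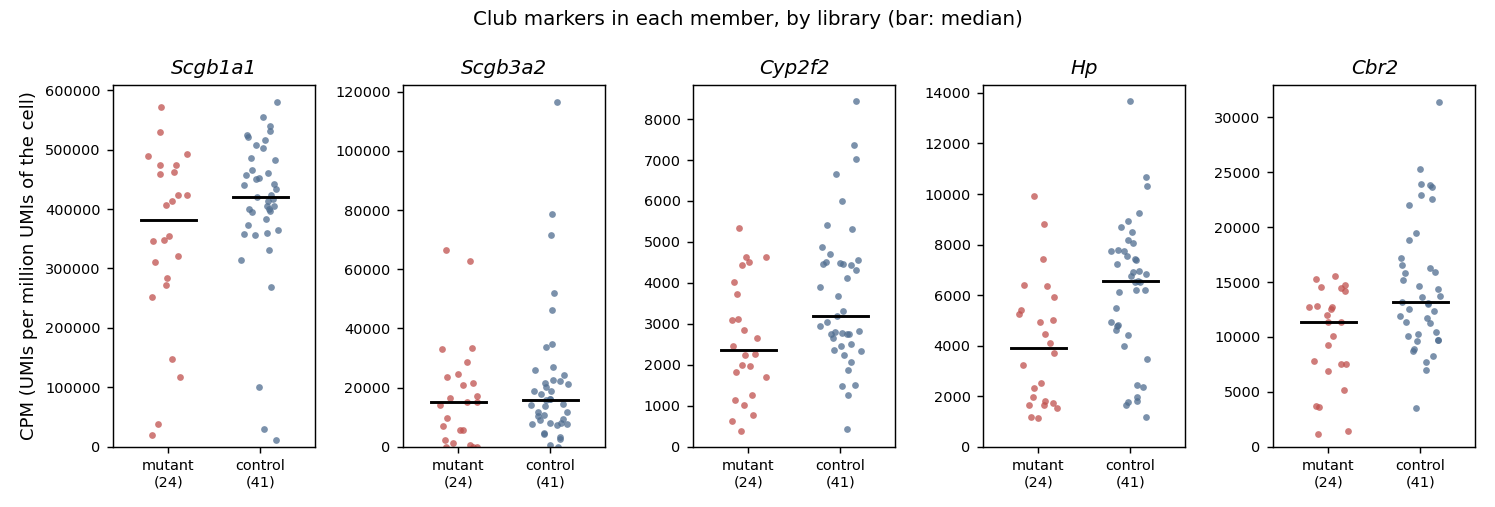
Levels of 5 club cell genes in each member, in CPM (vertical axes), with the 24 mutant members left of the 41 control members in each panel; each point is 1 cell and the bar is the median. Scgb1a1, Scgb3a2 and Cyp2f2 were used to choose the members, while Hp and Cbr2 were not, and both of these had medians below the control in the mutant library (3909 CPM in the mutant and 6553 CPM in the control for Hp, 11335 CPM in the mutant and 13170 CPM in the control for Cbr2) with overlapping ranges.

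To see what sets these cells apart from their neighbours, summed levels were compared with ciliated barcodes (53 mutant, 102 control) and with alveolar type 2 (AT2) barcodes, the surfactant makers (270 mutant, 1307 control). Of 566 genes at 100 CPM or more in members of both libraries, 22 were at least 2-fold above both other types in each library. Taking the smaller of the ratios in the mutant and control libraries, the leading genes after Scgb3a2 (16.2-fold) and Scgb1a1 (8.67-fold) were Slc16a11 (8.03-fold), a monocarboxylate transporter family member, and Gsta3 (7.15-fold), a glutathione transferase. Plpp3 (7.14-fold), a lipid phosphate phosphatase, came next, then the tight junction gene Cldn10 (6.33-fold) and Hp (5.72-fold). Lypd2 (4.62-fold), Selenbp1 (4.44-fold), a selenium-binding methanethiol oxidase, and the microsomal glutathione transferase Mgst1 (4.17-fold) followed. Gabrp (3.16-fold), a GABA receptor subunit, and Epas1 (2.98-fold), which encodes the hypoxia factor HIF2A, closed the top 15 together with Cyp2f2 (3.05-fold), 8430408G22Rik (3.87-fold) and 5330417C22Rik (3.39-fold). The glutathione and conjugation list had 5 of its 12 abundant genes among the 22. The rule selected on low ciliated genes, so the contrast with ciliated barcodes is partly built in. It also required RNA of the secretoglobins and Cyp2f2, and AT2 barcodes had to hold under 1% secretoglobin UMIs. The ratios of Scgb1a1, Scgb3a2 and Cyp2f2 are therefore given as a description.

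The ciliated barcodes themselves held 42229 CPM of Scgb1a1 in the mutant and 41080 CPM in the control, far above the 66.8 CPM of mutant and 308 CPM of control AT2 barcodes. Most of this lay in 9 mutant and 18 control ciliated barcodes that pass the 1% secretoglobin limit. Without them, an alternative added after the data were seen, the count of club-leading genes was 23. The smaller ratios were then 37.6-fold for Cldn10, 35.8-fold for Slc16a11 and 15.2-fold for Hp. Those of Scgb1a1 (202-fold) and Scgb3a2 (191-fold) are set by the limit itself, since members had to pass it and these ciliated barcodes had to fail it.

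**Figure D2:**
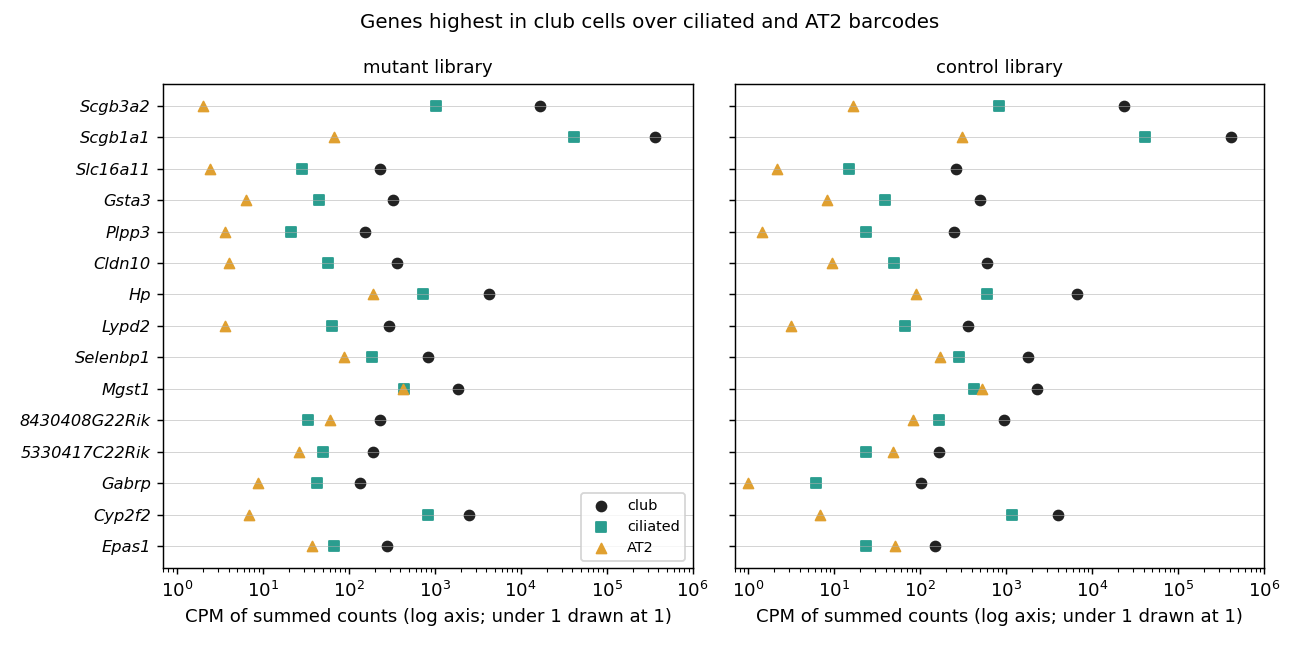
Summed CPM (log axis) of the 15 genes that most separate club members from ciliated and AT2 barcodes, with the mutant library in the left panel and the control library in the right panel; each point is the sum over all barcodes of a type, and values under 1 are drawn at 1. Every gene shown is highest in the club members of both libraries, and the smallest gap to ciliated barcodes is that of Cyp2f2, at 3.05-fold in the mutant and 3.40-fold in the control. Scgb1a1, Scgb3a2 and Cyp2f2 were used to choose the members.

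Across all genes the members of the mutant and control libraries were compared by summed CPM. Of 3594 genes that reached 20 UMIs when the libraries were added, 513 were at least 2-fold higher in the mutant (14.3% of the genes tested) and 267 at least 2-fold lower (7.43%), and the median log2 ratio was 0.14. The interval of the ratio excluded equality for 398 of the higher and 155 of the lower genes. The figures of 14.3% and 7.43% are the background against which each gene list is read. Of the club identity genes outside the rule, 0 of 27 were at least 2-fold higher and 7 were at least 2-fold lower, with a median log2 ratio of -0.53. Phase I enzymes, which oxidise or hydrolyse foreign compounds, had 1 higher and 4 lower of 18, with a median of -0.31. Phase II and glutathione genes had 0 higher and 1 lower of 23, with a median of -0.28. In ciliated barcodes the club identity list had 2 higher and 5 lower of 26, with a median of -0.05, where 9.68% of all genes were higher and 6.74% lower. In endothelial barcodes the list had 1 higher and 8 lower of 14 (median -1.16, 2.74% of all genes lower). AT2 barcodes had 8 higher and 5 lower of 26 (-0.25, 3.74%), and mesenchymal barcodes 4 higher and 3 lower of 20 (-0.14, 2.29%). How much of the club identity difference is free RNA was not tested.

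Within the club programme the differences were uneven. Hp summed to 4231 CPM in mutant and 6630 CPM in control members, a log2 ratio of -0.65 (ratio 0.602 to 0.676), Cyp2f2 to 2538 CPM in the mutant and 3983 CPM in the control (-0.65), and Cbr2 to 10289 CPM in the mutant and 15526 CPM in the control (-0.59). Cbr2 was also lower in endothelial barcodes, at 12.5 CPM in the mutant and 38.8 CPM in the control. Ces1d, a carboxylesterase, was lower by more, with 373 CPM in the mutant and 1099 CPM in the control, a log2 ratio of -1.56 (ratio 0.280 to 0.409). Per member it ran from 0 through 215 to 1550 CPM in the mutant, against 0, 756 and 2651 CPM in the control. Ces1d was also lower in ciliated barcodes (269 CPM in the mutant and 625 CPM in the control) and in AT2 barcodes (92.2 CPM in the mutant and 285 CPM in the control). Selenbp1 had 0, 638 and 3415 CPM in mutant members and 81.8, 1440 and 3826 CPM in control members, and its log2 ratio was -1.09 (0.413 to 0.534). Both genes overlapped between the libraries, with the mutant median under the control median.

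Upk3a, a uroplakin that marks a subset of club cells near neuroendocrine bodies, had 34 UMIs in 10 of 24 mutant members and 295 UMIs in 26 of 41 control members, or 100 CPM in the mutant and 355 CPM in the control, a log2 ratio of -1.83 (0.192 to 0.403). It was near absent elsewhere, at 2.38 CPM in mutant and 6.18 CPM in control ciliated barcodes and 0 CPM in AT2 barcodes of both. Control members were deeper. Thinned to 2000 UMIs, 20.8% of mutant (7.13 to 42.2%) and 26.8% of control members (14.2 to 42.9%) held an Upk3a UMI. Thinned to 6900 UMIs, the shares were 33.3% of mutant (15.6 to 55.3%) and 53.7% of control members (37.4 to 69.3%). The intervals overlap at each depth. A single control member held 23.4% of the control Upk3a UMIs. Ldhb, a lactate dehydrogenase subunit, had 168 CPM in the mutant and 522 CPM in the control (-1.64), and Cyp4b1, a fatty acid and xenobiotic cytochrome, 76.5 CPM in the mutant and 154 CPM in the control (-1.01). Ldhb was also lower in ciliated barcodes (107 CPM in the mutant and 327 CPM in the control) and in AT2 barcodes (132 CPM in the mutant and 200 CPM in the control). Aldh1a1, which makes retinoic acid, had 791 CPM in the mutant and 1272 CPM in the control (-0.69) and Gsta3 323 CPM in the mutant and 492 CPM in the control (-0.60). Mgst1 differed little, with 1858 CPM in the mutant and 2261 CPM in the control (-0.28).

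Some genes of the same lists lay the other way. Fmo2, the flavin monooxygenase of lung, had 241 CPM in mutant and 93.8 CPM in control members, a log2 ratio of 1.36 (1.86 to 3.55). Its members ran from 0 through 216 to 1638 CPM in the mutant, against 0, 64.2 and 550 CPM in the control. Iyd, an iodotyrosine deiodinase, had 109 CPM in the mutant and 56.5 CPM in the control (0.94), Aox3, an aldehyde oxidase, 70.6 CPM in the mutant and 37.3 CPM in the control (0.92), and Cckar, a cholecystokinin receptor, 141 CPM in the mutant and 85.4 CPM in the control (0.73). Among antioxidant genes Prdx6, a peroxiredoxin, had 1170 CPM in the mutant and 2018 CPM in the control (-0.79), while Gsto1 had 841 CPM in the mutant and 666 CPM in the control (0.34, but -0.18 without members under 15% Scgb1a1) and Mgst2 49.99 CPM in the mutant and 30.1 CPM in the control (0.73). Gsta2, with 29.4 CPM in the mutant and 58.9 CPM in the control (-1.003), is uncertain because it shares near-identical sequence with Gsta1.

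The promoters of Cyp2f2 and Selenbp1 are printed because both genes carry the club pattern and each holds CAAGTG, the core of a motif that NKX2-1 is known to bind. Both are RefSeq windows of 300 bases on GRCm38.p6, from 250 bases before to 50 after the gene start, read 5' to 3' on the gene's strand. The gene start is the RefSeq one, and for Cyp2f2 it lies inside the gene position given above, not at its first base. They span chr7:27119705-27120004 (plus strand) and chr3:94932833-94933132 (plus strand), and capitals mark the motif.
Cyp2f2: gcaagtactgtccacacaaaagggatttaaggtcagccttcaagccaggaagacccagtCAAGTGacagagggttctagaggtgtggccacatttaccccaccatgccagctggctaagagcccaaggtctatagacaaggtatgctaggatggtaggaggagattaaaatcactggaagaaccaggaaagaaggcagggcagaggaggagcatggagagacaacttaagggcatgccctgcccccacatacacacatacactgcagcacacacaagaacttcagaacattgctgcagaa
Selenbp1: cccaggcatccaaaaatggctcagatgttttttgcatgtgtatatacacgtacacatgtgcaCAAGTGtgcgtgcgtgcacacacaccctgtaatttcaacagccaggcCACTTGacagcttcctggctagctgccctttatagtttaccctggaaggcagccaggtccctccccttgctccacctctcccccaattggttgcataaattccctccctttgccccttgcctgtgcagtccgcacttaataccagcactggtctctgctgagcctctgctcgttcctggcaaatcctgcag
The match in Cyp2f2 starts 191 bases before the gene start, and those in Selenbp1 start 188 bases before it and, on the other strand as CACTTG, 141 bases before it. Searched on both strands, CAAGTG was in 8 of the 26 club identity promoters found in the table (30.8%) and in 3658 of all 27025 promoters (13.5%). The longer form TCAAGTG, which overlaps it, was in 5 of the 26 and in 3.07% of all, and CTCAAG in 7 of the 26 and in 16.2%. TATAAA was in 8 of the 26 against 14.2%, and the AP-1 type TGANTCA in 3 of the 26 against 7.93%. The motifs were chosen with the results known, and a match is not a binding site.

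Nkx2-1 itself (ENSMUSG00000001496; chromosome 12, 56531958 to 56536908, minus strand) was at a low level in club cells of both libraries. It had 21 UMIs in 8 of 24 mutant members and 118 UMIs in 39 of 41 control members, or 61.7 CPM in the mutant and 142 CPM in the control, a log2 ratio of -1.20 (ratio 0.260 to 0.696). Per member the lowest, median and highest level was 0, 0 and 378 CPM in the mutant and 0, 133 and 432 CPM in the control. Free RNA bears on this count, since endothelial barcodes held 1.10 CPM in the mutant and 20.4 CPM in the control. The members also differed in depth. Thinned to 2000 UMIs each, 16.7% of mutant (4.74 to 37.4%) and 17.1% of control members (7.15 to 32.1%) held an Nkx2-1 UMI, against 0 of 454 mutant and 2.22% of control endothelial barcodes. Thinned to 6900 UMIs, a depth all members reach and an alternative added after the data were seen, the shares were 33.3% of mutant (15.6 to 55.3%) and 56.1% of control members (39.7 to 71.5%), so these intervals overlap. The same sum was 150 CPM in mutant and 280 CPM in control ciliated barcodes (-0.90), and 258 CPM in mutant and 349 CPM in control AT2 barcodes (-0.44). Which transcripts the 3' tags count relative to any deletion is not stated in the labels.

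AT1 and AT2 genes found in club cells were mostly lower in the mutant library. The listed AT1 genes summed to 1655 CPM in mutant and 2926 CPM in control members, and the AT2 genes to 2940 CPM in mutant and 8923 CPM in control members. Of 9 AT1 genes tested, 1 was at least 2-fold higher and 3 at least 2-fold lower, with a median log2 ratio of -0.17. In endothelial barcodes 14 of 22 AT1 genes were at least 2-fold lower and 0 higher (median -2.27, 2.74% of all genes lower). In mesenchymal barcodes 9 of 23 were lower and 2 higher (-0.75, 2.29%), and in AT2 barcodes 4 of 24 lower and 4 higher (-0.09, 3.74%). In ciliated barcodes 2 of 16 were lower and 5 higher (0.25, 6.74%). Aqp5 had 115 CPM in mutant and 499 CPM in control members (-2.12, 0.161 to 0.320). Ager, the AT1 receptor for glycation products, had 0, 368 and 2152 CPM in mutant members and 56.1, 963 and 5413 CPM in control members, a log2 ratio of -1.44. Gprc5a, an orphan receptor of AT1 cells, had 79.4 CPM in the mutant and 233 CPM in the control (-1.55), but Lmo7, a junction-linked actin regulator on the same list, had 200 CPM in the mutant and 62.5 CPM in the control (1.68). These AT1 genes also differed in endothelial barcodes, where Aqp5 had 3.31 CPM in the mutant and 76.4 CPM in the control and Ager 18.8 CPM in the mutant and 559 CPM in the control. With the endothelial level subtracted, the log2 ratio was -0.70 for Ager, -1.92 for Aqp5 and -1.50 for Gprc5a.

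Sftpc, the AT2 surfactant gene, was the one gene of 693 named or listed whose members did not overlap between libraries. Its lowest, median and highest level was 0, 64.4 and 394 CPM in mutant members and 743, 1272 and 89854 CPM in control members. Endothelial barcodes held 346 CPM in the mutant and 2805 CPM in the control, and the member medians lay below these levels. Member sums were 76.5 CPM in the mutant and 2739 CPM in the control, a log2 ratio of -5.16. A pair of control members, each with Sftpc at 2% of UMIs or more, held 55.1% of the control UMIs, and without them the log2 ratio was -4.04. Among 17 AT2 genes, 2 were at least 2-fold higher and 6 at least 2-fold lower, with a median log2 ratio of -0.76. In ciliated barcodes 16 of 22 AT2 genes were lower and 0 higher (median -2.60, 6.74% of all genes lower), and in endothelial barcodes 14 of 22 lower and 1 higher (-1.42, 2.74%). In mesenchymal barcodes 10 of 23 were lower and 1 higher (-0.75, 2.29%), and in AT2 barcodes 0 of 24 lower and 0 higher (-0.28, 3.74%). Sftpb, a surfactant protein that club cells also make, had 1735 CPM in mutant and 2993 CPM in control members (-0.79), against 22.5 CPM in mutant and 115 CPM in control endothelial barcodes. The lipid synthase gene Fasn (41.2 CPM in the mutant and 14.4 CPM in the control, 1.51) and the fatty acid binder Fabp5 (47.0 CPM in the mutant and 15.6 CPM in the control, 1.59, but 0.91 without members under 15% Scgb1a1) were the higher pair.

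**Figure D3:**
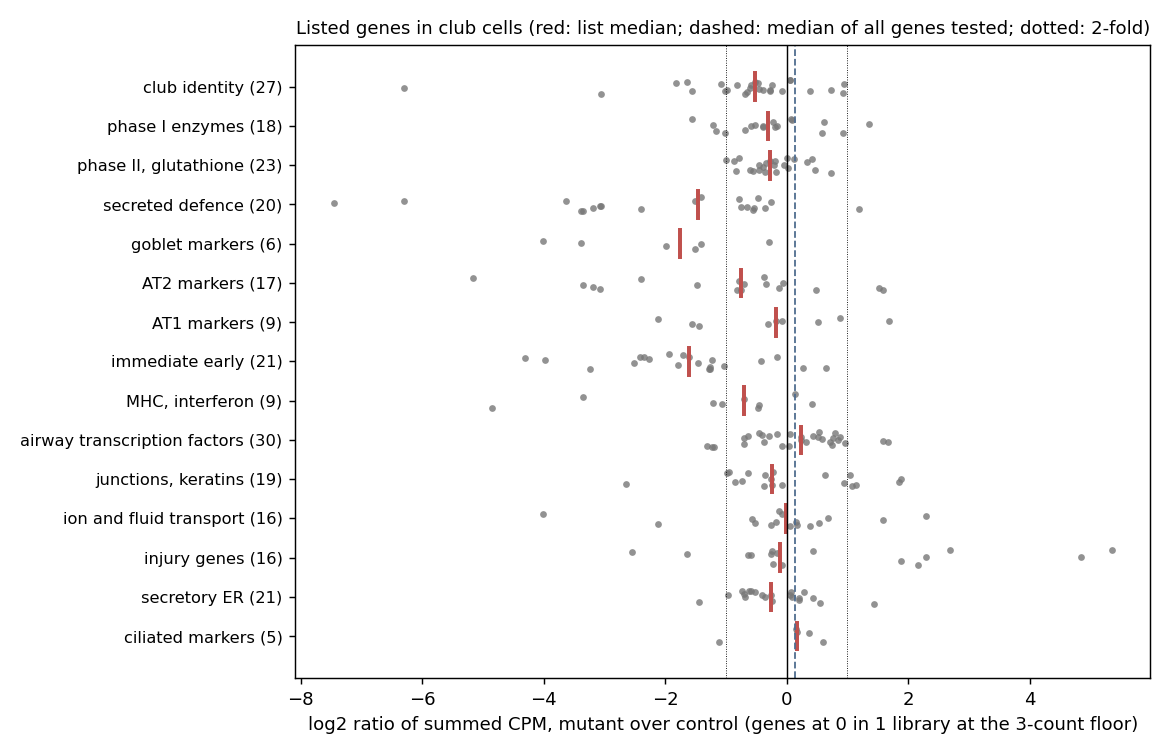
Log2 ratio of summed CPM, mutant over control, for each tested gene of 15 gene lists (points), with the median of each list as a red bar, the median of all genes (0.14) as a dashed line and 2-fold limits dotted. Immediate early, secreted defence and goblet genes lie furthest to the lower side, with medians of -1.61, -1.46 and -1.75, while airway transcription factors and ciliated markers have medians of 0.24 and 0.16.

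Immediate early genes were among the lowest in the mutant members. These genes, which cells switch on within minutes of a stimulus, had 0 of 21 at least 2-fold higher and 17 at least 2-fold lower, with a median log2 ratio of -1.61 and a summed level of 1920 CPM in the mutant and 7417 CPM in the control. Junb, a subunit of the AP-1 transcription factor, had 0, 31.5 and 472 CPM in mutant and 0, 700 and 3408 CPM in control members (sums 100 CPM in the mutant and 943 CPM in the control, -3.24). Ier2, a nuclear immediate early protein, had 0, 124 and 1669 CPM in mutant and 0, 949 and 3676 CPM in control members (-2.27). UMIs of Jun were found in 11 of 24 mutant and 36 of 41 control members (-2.52), of Fos in 9 mutant and 34 control members (-1.71), and of Egr1, a zinc finger factor, in 5 mutant and 30 control members (-2.35). Zfp36, which destabilises cytokine mRNAs, had 85.3 CPM in the mutant and 457 CPM in the control (-2.42). Fosl2 (0.65, but -0.93 with the endothelial level subtracted, in the mutant alone) and Ier5 (0.26) were the listed genes above 0. Endothelial barcodes held these genes too, with 281 CPM of Junb in the mutant and 595 CPM in the control. Subtracting that level only in a library where it was below the member level, which for Junb, Ier2 and Egr1 was the control alone, left log2 ratios of -1.80 for Junb, -0.89 for Ier2 and -1.24 for Egr1. Where both libraries were subtracted, it was -5.39 for Fos and -4.88 for Zfp36, with mutant levels at or near the floor of 3 UMIs. The list median was then -1.46. The level subtracted holds the endothelial cells' own RNA as well as free RNA.

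Nfkbia, Ier3, Socs3 and Gadd45g were lower still. Nfkbia (ENSMUSG00000021025), the inhibitor that holds NF-kB in the cytoplasm, had 10 UMIs in 8 mutant members and 421 UMIs in 31 control members. Its lowest, median and highest level was 0, 0 and 228 CPM in the mutant and 0, 229 and 2911 CPM in the control, and the summed levels of 29.4 CPM in the mutant and 506 CPM in the control gave a log2 ratio of -4.11 (0.0277 to 0.108), or -2.99 with the endothelial level taken from the control alone. Ier3, an NF-kB target linked to survival, had 32.3 CPM in the mutant and 507 CPM in the control (-3.97), with medians of 0 CPM in mutant and 107 CPM in control members. Socs3, the brake on STAT3 signalling, had 2 UMIs in the mutant and 97 UMIs in the control, a ratio of 0.00602 to 0.187. Gadd45g, a stress response gene, had 17.6 CPM in the mutant and 194 CPM in the control (-3.46), of which 1 control member held 53.4%.

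RNA of the chemokines Cxcl1, Ccl20 and Cxcl2 was found in control members only. Cxcl1, a neutrophil attractant, had 0 UMIs in the mutant and 205 UMIs (247 CPM) in 9 of 41 control members, at least 27.9-fold lower in the mutant against a floor of 3 UMIs over the group. Ccl20, which attracts CCR6-bearing lymphocytes and dendritic cells, had 0 UMIs in the mutant and 140 UMIs (168 CPM) in 7 control members, at least 19.1-fold lower in the mutant. Cxcl2 had 0 UMIs in the mutant and 54 UMIs in 4 control members. Single cells weighed heavily, since 1 control member held 46.3% of the Cxcl1 UMIs and 1 held 47.1% of those of Ccl20. Without the top member the Cxcl1 log2 bound was -3.79. Ciliated barcodes had 0 CPM of Cxcl1 in the mutant and 7.41 CPM in the control, and mesenchymal barcodes 4.44 CPM in the mutant and 44.4 CPM in the control.

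Nfkbia, Cxcl1 and Ccl20 are the genes among the 10 lowest whose promoters in the table hold an NF-kB type motif (GGG, any 2 bases, then TTTCC), and those promoters are shown with the match in capitals. They are RefSeq windows of the same length and build, spanning chr12:55492598-55492897 (minus strand), chr5:90890995-90891294 (plus strand) and chr1:83116516-83116815 (plus strand).
Nfkbia: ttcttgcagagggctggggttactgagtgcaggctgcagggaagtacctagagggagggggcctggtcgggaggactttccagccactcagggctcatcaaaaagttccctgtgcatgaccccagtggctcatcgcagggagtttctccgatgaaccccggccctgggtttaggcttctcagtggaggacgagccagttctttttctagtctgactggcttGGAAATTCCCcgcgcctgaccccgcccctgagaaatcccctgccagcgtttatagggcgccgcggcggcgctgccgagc
Cxcl1: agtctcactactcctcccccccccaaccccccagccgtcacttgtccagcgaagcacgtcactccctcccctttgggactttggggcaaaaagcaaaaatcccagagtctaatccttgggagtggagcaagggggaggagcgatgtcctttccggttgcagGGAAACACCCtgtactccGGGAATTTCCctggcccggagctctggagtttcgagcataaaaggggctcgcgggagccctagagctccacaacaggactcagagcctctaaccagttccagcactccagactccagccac
Ccl20: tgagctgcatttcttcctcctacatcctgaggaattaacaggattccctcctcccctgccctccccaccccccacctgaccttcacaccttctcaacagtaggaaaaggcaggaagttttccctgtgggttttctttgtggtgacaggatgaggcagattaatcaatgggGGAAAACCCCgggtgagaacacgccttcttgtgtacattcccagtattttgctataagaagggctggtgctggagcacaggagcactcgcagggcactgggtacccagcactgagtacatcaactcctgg
In Nfkbia the match starts 29 bases before the gene start and reads on the other strand. Cxcl1 holds a match on the other strand 89 bases before the start and one on its own strand 71 bases before it, and Ccl20 one on the other strand 80 bases before it. The motif was in 3 of the 9 lowest genes found in the table, 0 of the 8 highest found, 0 of 26 club identity and 0 of 22 immediate early promoters, and in 438 of all 27025 (1.62%). The serum response factor type, CCATAT joined to TAGG, was in 0.0777% of all promoters and in 1 of the 8 highest genes. Promoters of Scgb1a1, Hp, Clu, Ces1d, Egr1 and Ier2 are not shown.

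The same direction of immediate early genes appeared in the other cell types of these libraries. In ciliated barcodes 18 of 23 were at least 2-fold lower in the mutant, with a median log2 ratio of -1.89, against the 6.74% of all genes. In AT2 barcodes 15 of 24 were lower (median -1.25, background 3.74%), in endothelial barcodes 7 of 22 (-0.67, 2.74%) and in mesenchymal barcodes 5 of 23 (-0.70, 2.29%). The list median was below 0 in each of these 5 types. The medians in club, ciliated and AT2 barcodes lay further from 0 than those in endothelial and mesenchymal barcodes, and library and genotype cannot be told apart in any of them. Nfkbia was lower in ciliated barcodes too (95.2 CPM in the mutant and 494 CPM in the control), with a smaller gap in endothelial barcodes (249 CPM in the mutant and 273 CPM in the control).

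**Figure D4:**
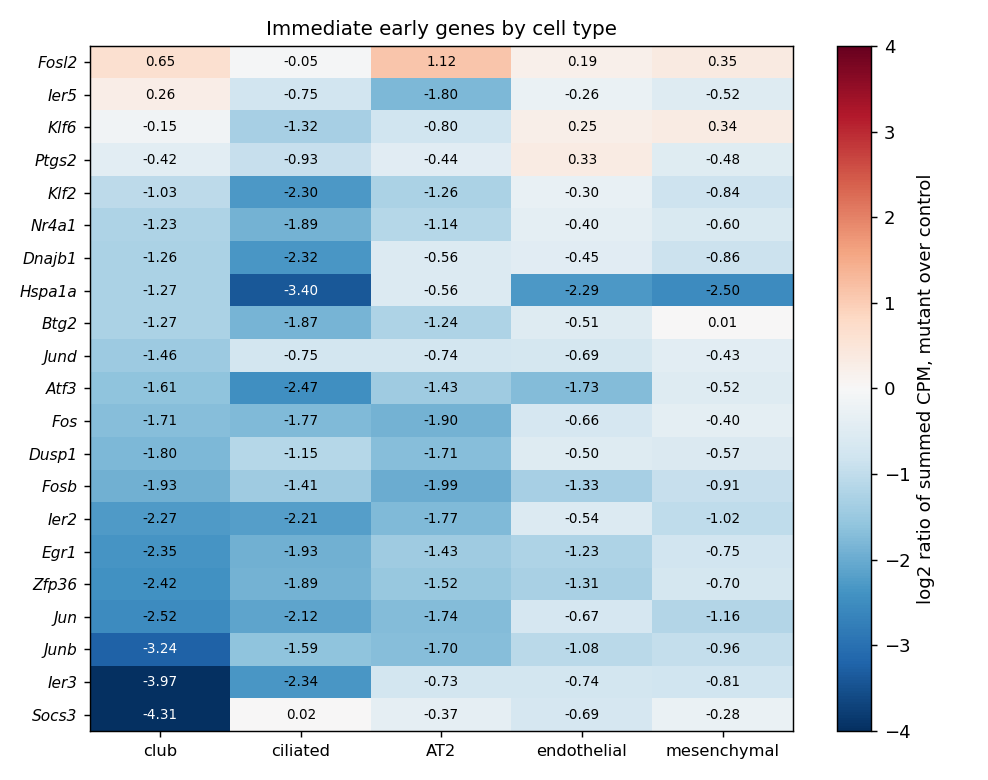
Log2 ratio of summed CPM, mutant over control, for the 21 tested immediate early genes (rows) in club, ciliated, AT2, endothelial and mesenchymal barcodes (columns); colour and the printed value give the ratio. Most genes are below 0 in every type, with list medians of -1.61 in club, -1.89 in ciliated, -1.25 in AT2, -0.67 in endothelial and -0.70 in mesenchymal barcodes.

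Antigen presentation and interferon genes were mostly lower in the mutant. Of 9 tested, 0 were at least 2-fold higher and 4 at least 2-fold lower, with a median log2 ratio of -0.71. Irf1, an interferon response factor, had 1 UMI in the mutant and 71 UMIs in 15 control members, a ratio of 8.6e-04 to 0.198 and a log2 ratio of -4.86, or -1.64 with the endothelial level taken from the control alone. Cd74, the class II invariant chain, had 3 UMIs in the mutant and 75 UMIs in the control, a ratio of 0.0197 to 0.297, and the class I light chain B2m 103 CPM in the mutant and 216 CPM in the control (-1.07). AT2 and ciliated barcodes also had less Cd74 in the mutant, at 1609 CPM in mutant and 3100 CPM in control AT2 barcodes and 424 CPM in mutant and 691 CPM in control ciliated barcodes. The interferon-inducible Ifitm3 was slightly the other way, with 218 CPM in the mutant and 162 CPM in the control (0.42).

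Secreted defence proteins were lower in the mutant members, but much of this came from a pair of control cells. Of 20 tested genes 1 was at least 2-fold higher and 11 at least 2-fold lower, with a median log2 ratio of -1.46. Control members numbered 5 and 8 in order of Scgb1a1 share held 147 and 238 UMIs of Scgb3a1, a secretoglobin of mucous and large airway cells. Together they carried 385 of 386 control UMIs of Scgb3a1, 427 of 428 of the lectin Reg3g, 134 of 136 of the trefoil peptide Tff2, 66 of 77 of Bpifb1 and 21 of 21 of the mucin Muc5b. Their Scgb1a1 was at 31.5 and 35.8% and Scgb3a2 at 11.6 and 7.86% of UMIs, values that the rule had used. No mutant member had more than 1 UMI of Scgb3a1. Among goblet genes 0 of 6 were higher and 5 lower (median -1.75), and all 118 control UMIs of Clca1 lay in member 5. Without the pair, an alternative added after the data were seen, the secreted defence median was -0.71. The list was also low in ciliated barcodes, with 10 of 17 at least 2-fold lower (median -1.50, background 6.74%), and in endothelial barcodes, with 11 of 13 (-1.45, 2.74%). In AT2 barcodes 1 of 18 was lower (0.07, 3.74%) and in mesenchymal barcodes 6 of 16 (-0.14, 2.29%).

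Other secreted defence genes gave these values. Chia1, an acidic chitinase, had 42 UMIs in 10 mutant members and 811 UMIs in 32 control members, or 123 CPM in the mutant and 975 CPM in the control, a log2 ratio of -2.98 (0.0906 to 0.173). Its members ran to 896 CPM in the mutant and 7022 CPM in the control, with medians of 0 CPM in the mutant and 371 CPM in the control. Ciliated barcodes also held less Chia1 in the mutant (80.9 CPM in the mutant and 289 CPM in the control), as did AT2 barcodes (48.7 CPM in the mutant and 182 CPM in the control). Retnla, a resistin-like protein of allergic airways, had 0, 271 and 8197 CPM in mutant members and 0, 88.9 and 51414 CPM in control members, so the summed ratio of -3.06 and the medians point opposite ways. It was -2.24 without the control pair, which held 579 and 1833 UMIs, beside 1666 UMIs in 1 further control member. Chil1, a chitinase-like lectin, had 103 CPM in the mutant and 545 CPM in the control (-2.40), with 42.6% of the control UMIs in 1 member, and -1.68 without the pair. Sftpa1, a surfactant collectin, had 144 CPM in the mutant and 1320 CPM in the control (-3.20), of which 1 member held 55.9% in the control, and -2.10 without the pair. In ciliated barcodes Sftpa1 was at 28.6 CPM in the mutant and 788 CPM in the control. Wfdc2, an abundant antiprotease-like protein, differed less, with 2125, 4427 and 12391 CPM in mutant and 3100, 5849 and 12431 CPM in control members (-0.35). Cxcl17, a mucosal chemokine, was the one gene at least 2-fold higher, at 129 CPM in the mutant and 56.5 CPM in the control (1.19), and 2.27 without the pair.

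**Figure D5:**
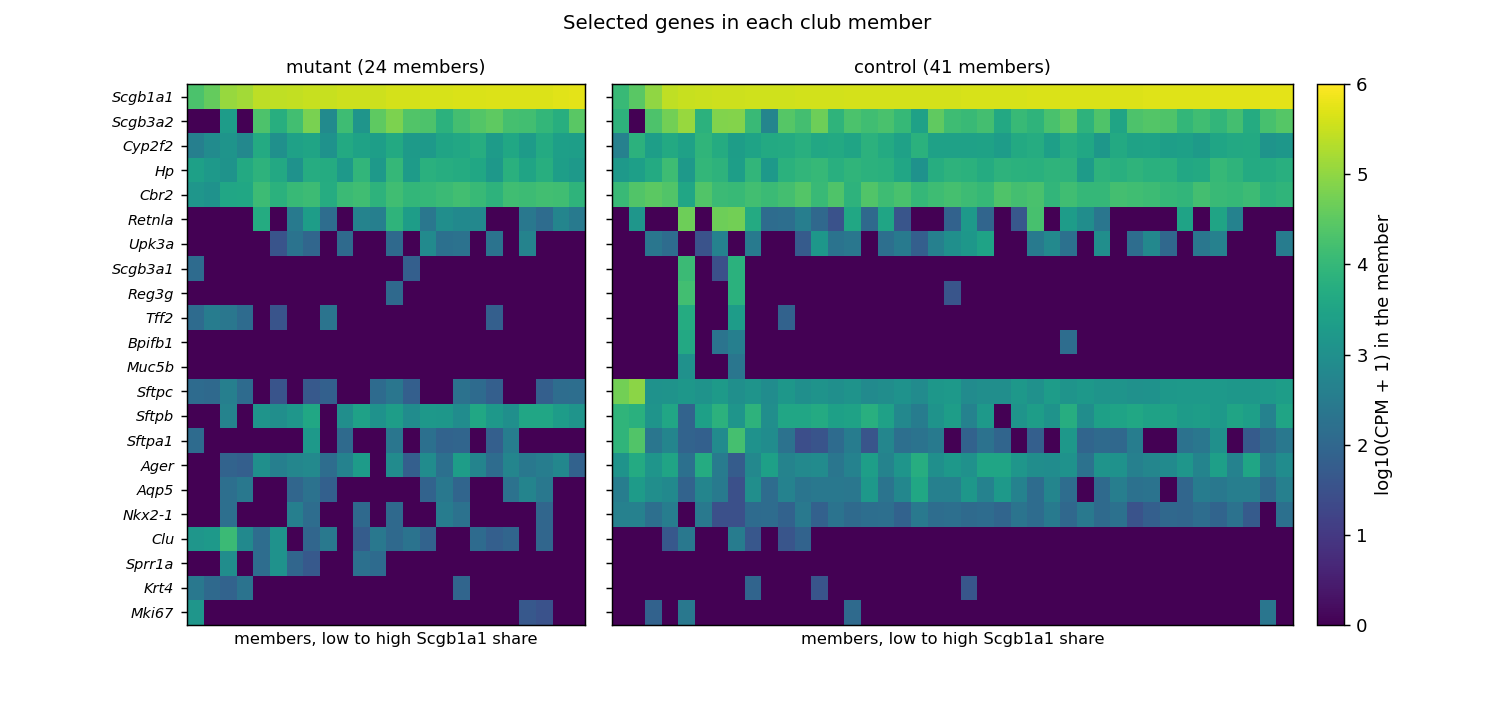
Log10(CPM + 1) of 22 genes (rows) in each of the 24 mutant members (left) and 41 control members (right), ordered within each library from low to high Scgb1a1 share. Scgb3a1, Reg3g, Tff2 and Muc5b light up in the same pair of control members, Clu is highest in 1 of the mutant members with little Scgb1a1, and Sftpc is higher in each control member than in any mutant member.

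Among the genes highest in the mutant members was Clu. Clu (ENSMUSG00000022037; chromosome 14, 65968483 to 65981547, plus strand), which encodes the secreted chaperone clusterin, had 246 UMIs in 17 of 24 mutant members and 21 UMIs in 6 of 41 control members. Its sums were 723 CPM in the mutant and 25.3 CPM in the control, a log2 ratio of 4.84 (18.3 to 47.1). One mutant member held 63.0% of its UMIs, and the lowest, median and highest level was 0, 94.4 and 12202 CPM in the mutant and 0, 0 and 337 CPM in the control. The log2 ratio was 2.80 without members under 15% Scgb1a1 and 6.56 without the Scgb3a1-bearing control pair. Ciliated and AT2 barcodes differed as well, with 2159 CPM in mutant and 63.0 CPM in control ciliated barcodes and 1771 CPM in mutant and 31.6 CPM in control AT2 barcodes, and endothelial barcodes held 121 CPM in the mutant and 33.3 CPM in the control. Thinned to 2000 UMIs, 29.2% of mutant members and 17.8% of mutant endothelial barcodes held a Clu UMI, against 2.44% of control members and 5.25% of control endothelial barcodes.

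S100a6, a calcium-binding protein of proliferating and stressed epithelia, had 1276 CPM in the mutant and 141 CPM in the control (3.18, 7.38 to 11.2), with 0, 134 and 5278 CPM in mutant and 0, 33.99 and 3925 CPM in control members. Its log2 ratio ranged from 2.59 to 3.92 as the groups of unusual members were left out. Cdkn1a, the cell cycle inhibitor p21, had 123 CPM in the mutant and 27.7 CPM in the control (2.16), with 52.4% of its UMIs in 1 of the 6 mutant members that held it. Of the other high genes, Kcnq1ot1, a nuclear antisense RNA (132 CPM in the mutant and 31.3 CPM in the control, 2.08), the spectrin Sptbn1 (1.98), the mitochondrial mt-Nd5 (844 CPM in the mutant and 234 CPM in the control, 1.85), Lurap1l (1.85), the chromatin remodeller Chd4 (1.75), the polycomb protein Cbx6 (1.71) and Lmo7 (1.68) were spread over 13 to 24 mutant members. With the endothelial level subtracted, which for Kcnq1ot1 and Lurap1l applied to the mutant alone, Kcnq1ot1 was 0.69, Lurap1l 0.05, mt-Nd5 3.05, Cbx6 4.30 and Lmo7 3.76. That level also holds RNA of the endothelial cells themselves, so these values are not ratios corrected for free RNA. The mitochondrial share of the members moves with mt-Nd5, and its part was not tested. Sprr1a, a cornified envelope gene, had 50 UMIs in 7 mutant members, 64.0% of them in 1 cell, and 0 UMIs in the control, at least 40.8-fold higher in the mutant. Ciliated barcodes had 374 CPM in the mutant and 0 CPM in the control. Of 16 injury genes tested, 6 were at least 2-fold higher and 2 at least 2-fold lower, with a median log2 ratio of -0.12. The higher genes were Sprr1a, Clu, Tm4sf1 (2.69), Fn1 (2.29), Cdkn1a and Lgals3 (1.88), and in each at least 36.7% of the mutant UMIs lay in 1 cell. The lower genes were Sfn (-2.55) and Cyr61 (-1.65), a matricellular protein gene.

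The mutant members with the least Scgb1a1 stood apart. Those 4 had Scgb1a1 at 2.05, 3.76, 11.7 and 14.7% of UMIs, mitochondrial shares of 5.57, 7.94, 9.73 and 2.49%, and Clu counts of 11, 15, 155 and 11 UMIs. They held 78.0% of the mutant Clu UMIs, 7 of 8 of the keratin Krt4 and 11 of 13 of the proliferation gene Mki67, all of these last in 1 cell. Scgb3a2 was at 0, 0, 27 and 0 UMIs in them and Hp at 20, 16, 15 and 71 UMIs. Without them 336 in place of 513 genes were at least 2-fold higher. The 3 control members under 15% Scgb1a1 looked different, since 2 of them carried 628 and 627 Sftpc UMIs, or 5.42 and 8.99% of their UMIs, and 0 Clu UMIs. None of the 65 members was marked as a doublet.

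Of 19 junction and keratin genes tested, 5 were at least 2-fold higher and 1 lower, with a median log2 ratio of -0.25. The higher genes included the desmosomal plaque gene Dsp (52.9 CPM in the mutant and 14.4 CPM in the control, 1.88), the scaffold Tjp1 (82.3 CPM in the mutant and 22.9 CPM in the control, 1.85), E-cadherin Cdh1 (179 CPM in the mutant and 81.8 CPM in the control, 1.13) and plakoglobin Jup (126 CPM in the mutant and 61.3 CPM in the control, 1.04). Ciliated and AT2 barcodes also had more Dsp and Tjp1 in the mutant, with log2 ratios of 1.39 and 1.42 in ciliated and 1.25 and 1.52 in AT2 barcodes. Cldn3 had 347 CPM in the mutant and 673 CPM in the control (-0.96) and Cldn10 362 CPM in the mutant and 600 CPM in the control (-0.73). Krt15, a keratin of airway progenitors, had 0 UMIs in the mutant and 46 UMIs in 12 control members, at least 6.27-fold lower in the mutant. Sfn, an epithelial 14-3-3 protein, had 26.5 CPM in the mutant and 155 CPM in the control (-2.55), and the abundant keratin Krt19 559 CPM in the mutant and 587 CPM in the control (-0.07).

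Of 30 airway transcription factors tested, 2 were at least 2-fold higher and 3 at least 2-fold lower, and their median log2 ratio was 0.24. The nuclear factor I genes were highest, Nfia at 76.5 CPM in the mutant and 24.1 CPM in the control (1.67, 1.71 to 6.01) and Nfib at 156 CPM in the mutant and 51.7 CPM in the control (1.59, 1.98 to 4.62). Elf5, an Ets factor of the lung bud tips, had 29.4 CPM in the mutant and 73.3 CPM in the control (-1.32), and Foxp4 11.8 CPM in the mutant and 27.7 CPM in the control (-1.23). Sox2, which specifies airway identity, had 49.99 CPM in the mutant and 34.9 CPM in the control (0.52, 0.739 to 2.70), an interval that spans equality. Hes1, the Notch effector of secretory fate, had 391 CPM in the mutant and 635 CPM in the control (-0.70), and the Notch list had 0 of its 3 tested genes past 2-fold.

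The remaining lists had few tested genes. Outgoing signals had 1 of 9 at least 2-fold higher, the growth factor Pdgfa (1.51, with 61.9% of the mutant UMIs in 1 cell), and 3 lower, the chemokines Cxcl1, Ccl20 and Cxcl2. Basal cell genes had 0 of 3 higher and 2 lower, Krt15 and Sfn, and the list summed to 91.2 CPM in the mutant and 328 CPM in the control. Receptors had 2 of 9 at least 2-fold higher, Erbb3 (1.16) and the growth factor receptor Igf1r (67.6 CPM in the mutant and 31.3 CPM in the control, 1.11). Ion and mucus transport genes had 2 higher and 2 lower of 16, the higher pair being the bicarbonate transporter Slc4a4 (47.0 CPM in the mutant and 9.62 CPM in the control, 2.29) and the chloride channel Ano1 (1.58, but 0.93 without the member with most of its UMIs), each in at most 8 cells of a library. Secretory pathway genes had 1 higher and 1 lower of 21, the ribosome receptor Rrbp1 (191 CPM in the mutant and 70.9 CPM in the control, 1.43) and the chaperone Dnajb9 (-1.45). Few members carried cycling RNA, with 13 Mki67 UMIs in 3 mutant members and 10 in 4 control members, and the G2 and M phase list had a median of -0.09. Ciliated markers outside the rule had a median of 0.16 over 5 genes, and Sec14l3 was the one past 2-fold, at 226 CPM in the mutant and 488 CPM in the control (-1.11).

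Variation among the members of each library was ranked by variance over mean. After thinning to 2000 UMIs, 12 genes were among the 30 of highest variance over mean in both libraries. They were Scgb1a1, Scgb3a2, Retnla, Cbr2, Lypd2, S100a6, Tmsb4x, Malat1 and 4 mitochondrial genes. Sftpc, not among these 12, ranked highest in the control (102, against 74.0 for Scgb1a1), while Scgb1a1 ranked highest in the mutant. The rule had used Scgb1a1, Scgb3a2 and Cyp2f2, so values of these genes are a description. Cyp2f2 and Cbr2 varied together across members, with r = 0.80 over the 24 mutant and r = 0.45 over the 41 control members. Scgb1a1 and Scgb3a2 had r = 0.36 in the mutant and -0.10 in the control, and Scgb1a1 and Hp had 0.16 in the mutant and 0.22 in the control. Cells of 1 library share depth and free RNA, so these values describe the cells at hand. Ager and Aqp5 had r = -0.13 in the mutant and 0.67 in the control, where AT1 RNA was also the more common background.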

How the data were processed

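Droplet single-cell RNA was measured in 1 mutant and 1 control library. The authors deposited whole-number UMI counts for each gene in each barcode, not normalized. Cells were FACS-sorted and run with the 10x 3' version 2 kit on a NextSeq500, per the labels' protocols. Cell Ranger, Seurat and mm10 are named, per the submitters' processing notes, and for their versions and filters there is no entry in those notes. The libraries hold 47271104 UMIs in 4551 mutant barcodes and 29862980 UMIs in 4461 control barcodes. No author annotation of cells was used.

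Members were selected on fixed UMI limits and their counts summed per library and divided by the total, giving CPM. Ratios are mutant over control with exact conditional binomial 95% intervals, and shares have Clopper-Pearson intervals. PCR and capture noise beyond counting is not covered. A gene at 0 took 3 UMIs over the group as its floor, which is 8.82 CPM in the mutant and 3.61 CPM in the control, and list medians hold such genes at that bound. Where the endothelial level was subtracted, this was done only in a library where it was below the member level. The endothelial level is all RNA of those barcodes, their own as well as free RNA. Listed genes needed 20 UMIs over both libraries. Ciliated barcodes held at least 6 UMIs of the 4 ciliated genes. AT2 barcodes held at least 1% Sftpc, at least 3 UMIs over Slc34a2, Lamp3 and Abca3, and under 1% secretoglobin UMIs. Shares were computed after thinning to 2000 UMIs with seed 1. Doublets were scored with scanpy from 2 simulated doublets per cell and the top 3.73% of mutant and 3.43% of control barcodes marked, an expected rate of 0.8% per 1000 cells, since the histogram threshold marked 0.241% of the control. No member was marked, so none was removed.

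The members, gene lists and motifs were chosen with earlier results of these data known. Named genes were the given markers with Nkx2-1 and Aqp5, and the 10 largest and 10 smallest ratios at 50 UMIs, 100 CPM and 5 members or more that did not differ alike in endothelial and mesenchymal barcodes. Each list also gave its 2 most abundant genes and its extremes, and the 15 genes most above ciliated and AT2 barcodes and the most variable genes were named. Further listed genes were named after their values were seen. The code was tested on simulated data. Promoters came from RefSeq tables on GRCm38.p6. Python 3.11.15, numpy 2.4.6, scipy 1.17.1, pandas 2.3.3, scanpy 1.11.5 and matplotlib 3.10.9 were used. Alternatives changed the membership limits, the scaling, the floor on UMIs, the subtraction of the endothelial level and the members left out.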

Additional observations from a re-analysis of the deposited data

How the results depend on the processing

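No paired analysis was possible because each group has 1 library, and for the same reason no replicate could be left out. Of the alternative values of counts, list medians and member numbers, 279 stayed within their limits and 8 moved. The count of genes at least 2-fold higher in the mutant, 513, was 336 without members under 15% Scgb1a1, 1220 at a floor of 10 UMIs and 97 at 50 UMIs. The count at least 2-fold lower, 267, was 405 with the endothelial level subtracted, 557 at 10 UMIs and 109 at 50 UMIs. The S phase median, -0.41 over 8 genes, was -1.15 with Cyp2f2 of at least 5 UMIs and -1.42 without members under 15% Scgb1a1. Of the genes past 2-fold, 4 changed sign. Tff2 was 4.01 without the control members of at least 100 Scgb3a1 UMIs, Fn1 -0.40 and Cdk1 0.67 without the member holding most of their UMIs, and Mki67 -0.17 in that case, -0.998 with Cyp2f2 of at least 5 UMIs and -0.73 without members under 15% Scgb1a1. Of the genes named with smaller ratios, Fosl2 was -0.93 and Plpp3 0.95 with the endothelial level subtracted, Gsto1 -0.18 without members under 15% Scgb1a1, Lypd2 0.16 without the Scgb3a1-bearing members, and Lypd2 0.08 and Slc16a11 0.07 as a mean over members. Without members under 15% Scgb1a1, Dnajb9 was -2.65 and Irf1 -3.06, and without the member with most of their UMIs Ccl20 was -3.21 and Krt15 -1.91. The cause of each was not tested beyond the cells left out.

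The immediate early median stayed between -2.20 and -1.46 and the club identity median between -0.67 and -0.42 under the alternatives run. Leaving out members by Scgb1a1 or Scgb3a1, marking doublets at the expected rate, thinning to 6900 UMIs and leaving out ciliated barcodes with secretoglobin RNA were chosen after seeing the data. Depth limits rare genes: 1 UMI is 2.94 CPM over the mutant members.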
